A study of Mus musculus with 13 samples.

Results

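The elastic fiber assembly genes described here are Eln, Lox, Loxl1, Fbn1, Mfap4, Mfap5, Fbln1, Fbln5, Efemp2 and Emilin1. They were found by symbol, and they are 10 of the 31053 genes of the single-cell count matrix. Their counts were read in 20856 of its 37344 cells, namely the cells of the libraries numbered 1, 2, 3 and 7 in which mitochondrial genes gave at most 10% of the counts. The series studied lung inflammation and emphysema in mouse lung, with single-cell RNA-seq of dissociated lung cells as 1 of its assays. The labels give 4 single samples, Asthma, PPE-emphysema, PPE-recovery and Control, and each was a single mouse. They also give 3 samples each of Acute injury, Con and emphysema, for which no values were analysed here. PPE is porcine pancreatic elastase, an enzyme that digests elastin. In the single-cell experiment the PPE-emphysema mouse received repeated weekly intratracheal instillations, the PPE-recovery mouse received a single instillation and was killed later, and the Asthma mouse was sensitized to and challenged with ovalbumin. The mice of the study were C57BL/6, and neither the age of these animals nor any further allele was given for them. The matrix numbers its libraries from 1 to 7 and ties no number to a group. Levels were therefore described by cell class and by library number, and no comparison between the asthma, emphysema, recovery and control lungs was made.

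Elastic fibers give the lung its recoil. They consist of a core of cross-linked elastin on a scaffold of fibrillin microfibrils, and they form outside the cell. Secreted tropoelastin is brought together with microfibrils and with lysyl oxidases by fibulins, and the oxidases then convert lysines of tropoelastin so that the chains become cross-linked. In the lung, fibroblasts, smooth muscle cells, mesothelial cells and endothelial cells of large vessels are known sources of elastin.

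The 4 libraries held 3301 to 7626 cells that passed the mitochondrial limit, with a median depth of 6800.0 to 8363.5 unique molecular identifiers (UMIs) per cell. Graph-based clustering, in which the 10 genes and 32 related genes were not used, gave 43 clusters, and 42 of them were named from lists of marker genes. Fibroblast-like cells numbered 1893, smooth muscle cell-like cells 251, pericyte-like cells 79 and mesothelial-like cells 58. These 4 classes are called mesenchymal-like below and made up 2281 cells. Their share differed widely between libraries, with 2.92% of cells in library 1, 19.1% in library 2, 11.9% in library 3 and 2.30% in library 7. CPM is the summed count of a gene or list in a class, divided by all UMIs of the class and scaled to 1000000. The endothelial list reached 3646 CPM in the pericyte-like cluster against 7188 CPM for the pericyte list. In a fibroblast-like cluster of 169 cells the endothelial list, at 5404 CPM, exceeded the fibroblast list, at 2852 CPM, and a doublet caller marked 32.0% of its cells against 3.49% of all cells. The counts and ratios were also run without this cluster, as an alternative chosen after seeing the data. Beyond that, the part of the mixture in the levels of the genes was not tested. A total of 50 barcode sequences occurred in more than 1 library. Since the libraries could not be assigned to groups, the matrix counted as a single sample, and no test was possible. The intervals in parentheses are exact 95% Poisson intervals for CPM and exact 95% intervals for shares and ratios, and they cover counting error only. The number of libraries in which a difference had the same sign is given as the check on reproducibility. CPM was compared between cell classes for the same gene and not between genes.

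Each of the 10 genes was at least 4-fold higher in mesenchymal-like cells than in all other cells together. Of the 15896 genes with enough counts, 11.7% passed the same limit. The median ratio was 137 for the 10 genes and 0.968 for all genes compared. Fbln1 had the highest ratio, 347 (303–398), and Emilin1 the lowest, 7.0 (6.74–7.27). Between them lay Loxl1 at 315, Mfap5 at 273, Mfap4 at 261, Lox at 176, Fbn1 at 98.9, Eln at 77.0, Efemp2 at 11.4 and Fbln5 at 9.76. The direction was the same in 4 of 4 libraries for every one of the 10 genes. The order at the top depended on library 2, without which Loxl1 stood at 752 and Fbln1 at 706, and 7 of the 10 ratios moved by more than 1.5 times. All 10 genes thus leaned to the mesenchymal-like classes, and Fbln5, Efemp2 and Emilin1 stood apart from the other 7 by their lower ratios. The clusters had been built without the 10 genes, but genes that vary with them took part, so these ratios describe the classes and are not a test.

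**Figure D1:**
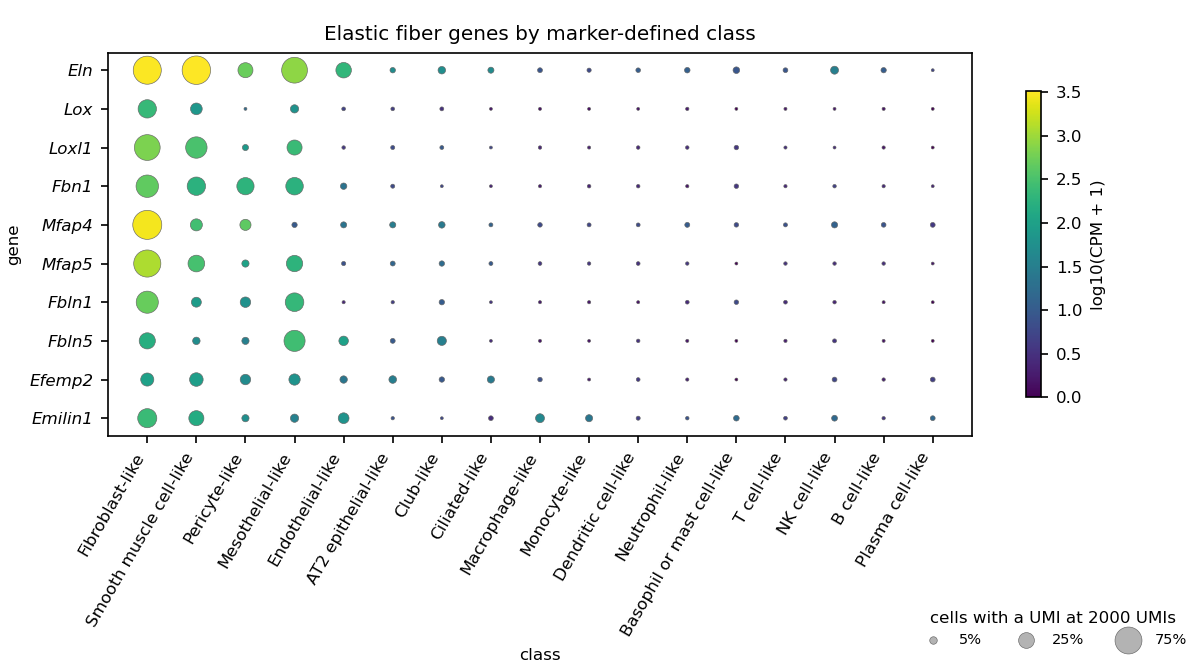
Dot plot of the 10 genes (vertical axis) by cell class (horizontal axis), in which color gives log10(CPM + 1) and dot area the percent of cells with a UMI after thinning to 2000 UMIs, with eosinophil-like and unnamed cells left out. Most bright, large dots lie in the first 4, mesenchymal-like, columns, with Mfap4 at 2863 CPM in fibroblast-like cells, Eln at 3251 CPM in smooth muscle cell-like cells and Fbln5 highest, at 273 CPM, in mesothelial-like cells. Small dots in these columns include Mfap4 in mesothelial-like cells (8.50 CPM) and Lox in pericyte-like cells (15.2 CPM).

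Eln (ENSMUSG00000029675, chr5:134702593-134747323, minus strand, mouse build GRCm38 with GENCODE M21) encodes tropoelastin, the soluble precursor of elastin. It was highest in smooth muscle cell-like cells, at 3251 CPM (3177–3326), and in fibroblast-like cells, at 3129 CPM (3105–3153). Mesothelial-like cells followed at 831 CPM (774–891), pericyte-like cells at 517 CPM (463–575) and endothelial-like cells at 201 CPM (196–207). The smooth muscle cell-like and pericyte-like levels rested on library 2, without which they were 1496 CPM (1403–1595) and 112 CPM (76.2–159). By library (1, 2, 3 and 7) pericyte-like cells held 184, 810, 78.8 and 265 CPM of Eln, from 7, 44, 26 and 2 cells. In the 43 cells of a subcluster led by pericyte markers, 18.6% of cells had an Eln UMI. Library 2 gave 148 of the 150 Eln UMIs of that subcluster, and libraries 1 and 7 gave 0. The order of the first 2 classes was not stable, since Eln was higher in fibroblast-like cells in 2 libraries and higher in smooth muscle cell-like cells in the other 2. In library 1 the fibroblast-like cells held 4599 CPM and the smooth muscle cell-like cells 1573 CPM. In library 2 the values were 3733 and 3930 CPM. In library 3 they were 957 and 1440 CPM. In library 7, which had 8 smooth muscle cell-like cells, they were 7078 and 1499 CPM. Library 2, where both classes were nearly equal, gave 171 of the 251 smooth muscle cell-like cells and so weighed most in the sum. In cells thinned to 2000 UMIs, 81.5% of fibroblast-like and 83.9% of smooth muscle cell-like cells had an Eln UMI, against 2.07% of B cell-like cells, which served as a class not known to make elastin. Before thinning, 91.0% of fibroblast-like cells had an Eln UMI.

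Lox (ENSMUSG00000024529, chr18:52516067-52529867, minus strand) and Loxl1 (ENSMUSG00000032334, chr9:58287738-58313186, minus strand) encode lysyl oxidases, the copper enzymes that start elastin and collagen cross-linking. Lox stood at 221 CPM (215–228) in fibroblast-like cells, 70.8 CPM (60.3–82.7) in smooth muscle cell-like cells, 59.5 CPM (44.9–77.3) in mesothelial-like cells and 15.2 CPM (7.29–28.0) in pericyte-like cells. Smooth muscle cell-like and mesothelial-like cells did not differ beyond their intervals. Loxl1, a lysyl oxidase tied to elastin renewal, had the same leading class, with 663 CPM (652–674) in fibroblast-like cells. It reached 319 CPM (296–343) in smooth muscle cell-like cells, 237 CPM (207–270) in mesothelial-like cells and 76.0 CPM (56.4–100) in pericyte-like cells. Both oxidases were nearly confined to mesenchymal-like cells, which gave 96.2% of Lox UMIs and 97.8% of Loxl1 UMIs. After thinning, a Lox UMI was seen in 34.3% of fibroblast-like cells against 0.148% of B cell-like cells, and a Loxl1 UMI in 68.7% against 0.222%.

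Fbn1 (ENSMUSG00000027204, chr2:125300594-125507993, minus strand) encodes fibrillin-1, the backbone of the microfibril. Its level was 447 CPM (438–456) in fibroblast-like cells. Pericyte-like, smooth muscle cell-like and mesothelial-like cells were alike in order of size, with 184 CPM (153–220), 174 CPM (157–192) and 174 CPM (149–203), and the intervals of these 3 classes overlapped. Mfap4 (ENSMUSG00000042436, chr11:61485431-61488900, plus strand) encodes a microfibril-associated glycoprotein that binds tropoelastin and fibrillin. It showed the sharpest contrast within the mesenchymal-like classes, from 2863 CPM (2841–2886) in fibroblast-like cells through 435 CPM (386–488) in pericyte-like and 282 CPM (261–305) in smooth muscle cell-like cells to 8.50 CPM (3.67–16.7) in mesothelial-like cells. The mesothelial-like value rested on 8 UMIs, and it lay no higher than the 7.29 CPM of B cell-like cells by its interval. Pericyte-like cells exceeded smooth muscle cell-like cells for Mfap4 by 1.54-fold (1.34–1.77) in the sum, but few cells carried that level. Only 19.0% of pericyte-like cells had an Mfap4 UMI, libraries 1 and 7 gave 2 and 3 UMIs, and in the 43 cells of a subcluster led by pericyte markers 6.98% of cells held all 115 UMIs. Mfap5 (ENSMUSG00000030116, chr6:122505845-122529290, plus strand) encodes a further fibrillin-binding glycoprotein of the microfibril. It stood at 1207 CPM (1193–1222) in fibroblast-like cells, 294 CPM (272–317) in smooth muscle cell-like cells, 184 CPM (157–213) in mesothelial-like cells and 103 CPM (80.3–131) in pericyte-like cells. For Mfap4 and Mfap5 the smooth muscle cell-like value came mostly from libraries 2 and 3. By library (1, 2, 3 and 7) the smooth muscle cell-like cells held 8.74, 371, 93.2 and 21.3 CPM of Mfap4. They held 39.3, 342, 312 and 10.6 CPM of Mfap5.

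Fbln1 (ENSMUSG00000006369, chr15:85205949-85286535, plus strand) encodes fibulin-1, a calcium-binding glycoprotein found in elastic fibers and basement membranes. Its level was 493 CPM (484–503) in fibroblast-like cells, 217 CPM (188–249) in mesothelial-like cells, 84.5 CPM (73.0–97.3) in smooth muscle cell-like cells and 57.8 CPM (40.9–79.3) in pericyte-like cells. Fbln5 (ENSMUSG00000021186, chr12:101746565-101819055, minus strand) encodes fibulin-5, which binds elastin and cell-surface integrins and is needed for elastic fiber assembly. Unlike the other 9 genes it was highest in mesothelial-like cells, at 273 CPM (241–309), followed by fibroblast-like cells at 159 CPM (153–164) and endothelial-like cells at 96.6 CPM (92.8–101). The mesothelial-like level was 1.72-fold (1.51–1.96) that of fibroblast-like cells and was higher in 3 of 4 libraries, the exception being library 1 with 3 mesothelial-like cells. Smooth muscle cell-like and pericyte-like cells were lower, at 50.6 CPM (41.8–60.7) and 31.9 CPM (19.8–48.8). Efemp2 (ENSMUSG00000024909, chr19:5473954-5482517, plus strand) encodes fibulin-4, which brings lysyl oxidase to tropoelastin. It had the flattest profile among the mesenchymal-like classes, with 97.4 CPM (93.2–102) in fibroblast-like, 88.9 CPM (77.1–102) in smooth muscle cell-like, 63.7 CPM (48.6–82.1) in mesothelial-like and 47.1 CPM (32.0–66.9) in pericyte-like cells. The ratio of fibroblast-like to smooth muscle cell-like cells was 1.10 for Efemp2, with an interval of 0.948 to 1.27 that included 1. Efemp2 was also found in alveolar type 2 epithelial-like cells, at 29.7 CPM (25.8–34.1), and in ciliated-like cells, at 26.5 CPM (21.3–32.7). Endothelial-like cells held 23.1 CPM (21.2–25), against 1.04 CPM (0.476–1.98) in B cell-like cells.

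Emilin1 (ENSMUSG00000029163, chr5:30913402-30921277, plus strand) encodes a glycoprotein located between the elastin core and the microfibrils. Fibroblast-like cells held 236 CPM (229–242), smooth muscle cell-like cells 140 CPM (125–156), endothelial-like cells 63.3 CPM (60.2–66.5) and pericyte-like cells 53.2 CPM (37.1–74.0). Mesothelial-like cells held 32.9 CPM (22.4–46.8). Emilin1 also had a level in macrophage-like cells, at 43.1 CPM (41.6–44.6), and in monocyte-like cells, at 22.8 CPM (20.6–25.1), whereas B cell-like cells stood at 2.54 CPM (1.59–3.85). By library (1, 2, 3 and 7) macrophage-like cells held 36.0, 40.1, 36.9 and 59.6 CPM, and B cell-like cells 1.11, 8.66, 0.940 and 0.698 CPM, so that the lowest macrophage-like value exceeded the highest B cell-like value. The ratio of macrophage-like to B cell-like cells was 16.9 (11.2–27.0). Efemp2 was the other gene clearly above B cell-like cells there, at 6.25 CPM and a ratio of 6.0 (3.13–13.2) in 4 of 4 libraries. Within the macrophages, alveolar macrophage-like cells reached 50.1 CPM (48.1–52.3) and C1q macrophage-like cells 24.4 CPM (21.1–28.1). Thinned to 2000 UMIs, 7.48% of macrophage-like, 4.41% of monocyte-like and 11.3% of endothelial-like cells had an Emilin1 UMI, against 0.296% of B cell-like cells. Endothelial-like, macrophage-like and monocyte-like cells thus each carried Emilin1 above the level of B cell-like cells.

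Promoter windows in the RefSeq reference for build GRCm38.p6, which run from 250 bases before to 50 bases after an annotated start, were available for 5 of the 10 genes. The windows of Fbn1, Fbln5 and Emilin1 are shown because these genes had 3 different distributions, mostly in mesenchymal-like cells, shared with endothelial-like cells and shared with macrophage-like cells. Capitals mark the GC box, GGGCGG or its reverse complement CCGCCC, and each sequence is written 5′ to 3′ on the strand of its gene. The Fbn1 window is chr2:125506389-125506688 (minus strand), the Fbln5 window chr12:101819070-101819369 (minus strand, the first of 2 annotated starts) and the Emilin1 window chr5:30913536-30913835 (plus strand).
Fbn1: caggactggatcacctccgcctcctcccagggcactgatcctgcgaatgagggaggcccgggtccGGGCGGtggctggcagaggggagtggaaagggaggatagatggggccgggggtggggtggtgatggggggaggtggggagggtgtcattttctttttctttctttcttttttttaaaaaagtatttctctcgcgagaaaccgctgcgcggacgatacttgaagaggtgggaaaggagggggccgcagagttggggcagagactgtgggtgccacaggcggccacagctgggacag
Fbln5: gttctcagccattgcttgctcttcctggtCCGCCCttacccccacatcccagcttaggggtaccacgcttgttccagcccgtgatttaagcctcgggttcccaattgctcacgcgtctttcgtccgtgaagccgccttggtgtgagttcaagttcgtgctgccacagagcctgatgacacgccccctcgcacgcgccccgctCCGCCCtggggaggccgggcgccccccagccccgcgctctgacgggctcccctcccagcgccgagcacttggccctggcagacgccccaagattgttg
Emilin1: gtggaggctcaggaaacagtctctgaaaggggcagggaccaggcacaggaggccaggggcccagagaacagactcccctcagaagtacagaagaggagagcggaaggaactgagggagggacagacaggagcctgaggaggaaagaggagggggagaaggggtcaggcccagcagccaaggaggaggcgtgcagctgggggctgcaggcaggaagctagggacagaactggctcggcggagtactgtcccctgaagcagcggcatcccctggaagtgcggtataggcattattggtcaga
The RefSeq start used for Fbn1 lay 1555 bases from the start of the gene in GENCODE M21, and those of Fbln5 and Emilin1 lay 64 and 384 bases from it. The GC box matched 1 time in the Fbn1 window, 2 times in the Fbln5 window and 0 times in the Emilin1 window, and 35.7% of the 32851 mouse windows held at least 1 match. The 5 genes had 9 windows in all, and none held TATAAA, found in 13.6% of all windows, or TGANTCA, found in 7.81%, on either strand. The letters CAGAC occurred 2 times in the Emilin1 window and in 49.6% of all windows. A match is a description of the letters in the window and not a binding site.

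The share of a gene's UMIs that came from mesenchymal-like cells follows from its ratio above, so it grouped the genes in the same way. Mesenchymal-like cells were 10.9% of cells and 12.6% of UMIs. They gave 98.0% of Fbln1, 97.8% of Loxl1, 97.5% of Mfap5, 97.4% of Mfap4, 96.2% of Lox, 93.4% of Fbn1 and 91.7% of Eln UMIs. For Fbln5 they gave 58.4%, and endothelial-like cells gave 36.9%. Efemp2 UMIs came to 62.1% from mesenchymal-like, 14.9% from endothelial-like and 11.8% from macrophage-like cells. Emilin1 UMIs came to 50.2% from mesenchymal-like, 28.7% from macrophage-like, 14.5% from endothelial-like and 3.74% from monocyte-like cells. These shares depend on the cells that were recovered from the tissue. In the sum over all cells of a library, fewer cells of a type and less RNA per cell cannot be told apart. Eln summed over all cells was 139, 811, 159 and 194 CPM in libraries 1, 2, 3 and 7, so that library 2, with the largest mesenchymal-like share, stood far above the rest, although its fibroblast-like cells did not have the highest level.

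**Figure D2:**
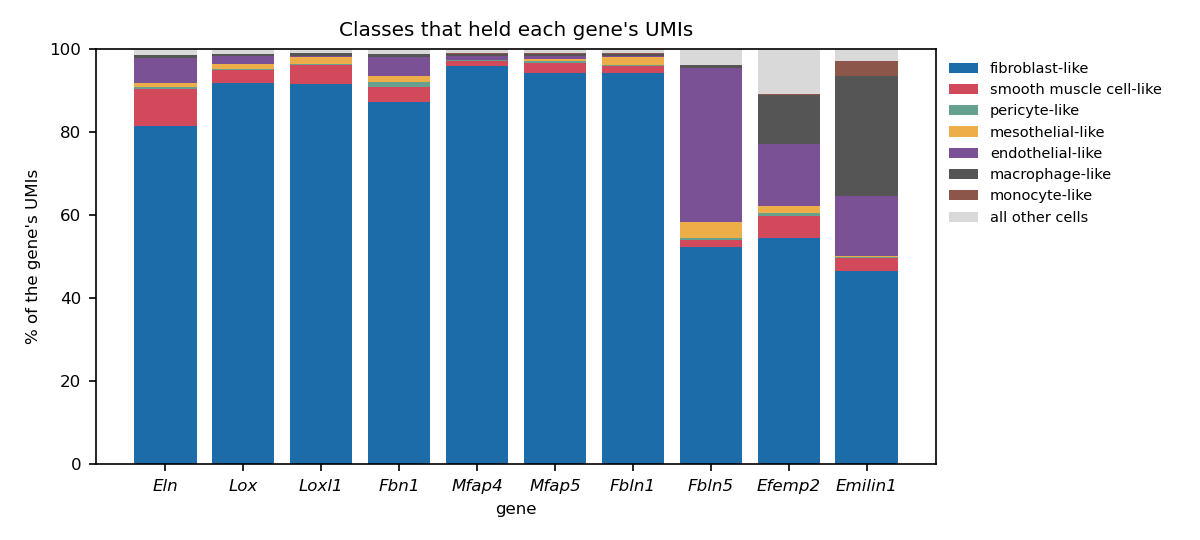
Share of the UMIs of each gene that came from each cell class, in percent, over all 20856 cells. Mesenchymal-like cells gave more than 90% for 7 genes, while Fbln5 was shared with endothelial-like cells (36.9%) and Emilin1 with macrophage-like cells (28.7%).

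Low counts of the abundant genes were found in every class, and in the lymphocyte classes below they were highest in library 2. In B cell-like cells Eln reached 2.21, 33.0, 2.82 and 4.19 CPM in libraries 1, 2, 3 and 7, and Mfap4 reached 1.66, 24.9, 4.70 and 1.40 CPM. In T cell-like cells Eln reached 1.70, 19.8, 4.41 and 1.96 CPM. Library 2 was thus above the others in both lymphocyte classes. Macrophage-like cells held no more Eln than B cell-like cells in the sum, at 7.39 against 9.60 CPM, and B cell-like cells were higher for Mfap4 in 4 of 4 libraries. Among the macrophages, however, C1q macrophage-like cells held 18.5 CPM of Eln (15.6–21.8). By library (1, 2, 3 and 7) these cells held 5.30, 34.0, 3.89 and 36.5 CPM, higher than B cell-like cells in 4 of 4 libraries. Levels like those of B cell-like cells were read as background and not as expression. By the same measure the 201 CPM of Eln in endothelial-like cells was above background, as was the 43.1 CPM of Emilin1 in macrophage-like cells. Eln lay between these levels in alveolar type 2 epithelial-like (47.8 CPM), club-like (52.1 CPM), ciliated-like (47.3 CPM) and NK cell-like cells (30.7 CPM). Whether Eln in these classes and in C1q macrophage-like cells was background was not tested. Mfap4 in endothelial-like cells, at 21.2 CPM, was 2.91-fold (2.24–3.85) above B cell-like cells and higher in 4 of 4 libraries. Its levels by library (1, 2, 3 and 7) were 6.44, 33.6, 7.72 and 1.90 CPM. In libraries 2, 3 and 7 the gap to B cell-like cells was smaller than in the sum, and library 7 gave 3 UMIs. Library 2 gave 1830 of the 3360 endothelial-like but 324 of the 1405 B cell-like cells, so library make-up also entered the pooled ratio. Of the 523 UMIs, 181 lay in an endothelial subcluster of 152 cells whose leading genes included pericyte markers.

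Fibroblast-like cells were then compared with smooth muscle cell-like and pericyte-like cells as 1 set. A total of 7 of the 10 genes were at least 2-fold higher in fibroblast-like cells, a limit that 8.41% of the 12304 genes compared passed, and 0 were at least 2-fold lower, against 9.23% of genes. The median ratio was 2.98 for the 10 genes and 0.912 for all genes compared. The largest ratios were those of Mfap4 at 9.05 (8.48–9.67), Fbln1 at 6.28 (5.51–7.19) and Mfap5 at 4.81 (4.47–5.18). Lox at 3.79 (3.25–4.44), Fbln5 at 3.42 (2.88–4.09), Fbn1 at 2.54 (2.32–2.78) and Loxl1 at 2.51 (2.33–2.70) also passed the limit. Emilin1 at 1.96 (1.76–2.19), Efemp2 at 1.22 (1.07–1.41) and Eln at 1.19 stayed below it. The pooled Eln ratio came from the smooth muscle cell-like cells, since pericyte-like cells alone were 6.05-fold (5.44–6.75) below fibroblast-like cells, in 4 of 4 libraries. With the 4 libraries weighted equally, the ratio of Eln became 2.39, that of Mfap4 15.8 and that of Mfap5 7.61. Lox reached 7.17 without library 2, and Fbln1 fell to 3.75 with a mitochondrial limit of 5%. At that limit 0 cells were named smooth muscle cell-like, so the comparison was with 144 pericyte-like cells.

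Single fibroblast-like cells carried several of the genes at the same time. At 2000 UMIs per cell, the median fibroblast-like cell had UMIs of 5 of the 10 genes (mean 5.31), and 70.9% of these cells had at least 5. Smooth muscle cell-like cells had a median of 3 (mean 2.77), mesothelial-like cells of 2 (mean 2.58) and pericyte-like cells of 1 (mean 1.03). Endothelial-like cells had a mean of 0.575 and B cell-like cells of 0.0517. Thinning kept 1675 of the 1893 fibroblast-like cells and left out 218 shallower ones. The thinned shares of fibroblast-like cells with a UMI were 87.2% for Mfap4, 76.2% for Mfap5, 51.8% for Fbn1, 50.3% for Fbln1, 37.3% for Emilin1, 26.5% for Fbln5 and 17.1% for Efemp2.

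The fibroblast-like cells fell into 3 clusters, and the genes differed between the 2 larger ones. The largest cluster, of 1504 cells, had the alveolar fibroblast markers, with Inmt and Npnt among its leading genes, and a cluster of 220 cells had the adventitial fibroblast markers, which mark the fibroblasts of the sheath around vessels and airways. Fbln1 was 1441 CPM in the adventitial cluster and 410 CPM in the alveolar cluster, a ratio of 3.51 (3.37–3.66) seen in 4 of 4 libraries. The adventitial cluster had only 8 cells in library 1 and 2 in library 7, so the counts of libraries rest on few cells there. Fbn1 stood at 966 against 407 CPM, a ratio of 2.37 (2.26–2.49) in 3 of 4 libraries. Mfap5 stood at 1861 against 1231 CPM, a ratio of 1.51 (1.46–1.56) in 4 of 4 libraries. Fbln5 stood at 250 against 157 CPM, a ratio of 1.60 (1.46–1.75) in 3 of 4 libraries. The microfibril gene Fbn1, the microfibril-binding gene Mfap5 and the fibulin genes Fbln1 and Fbln5 thus leaned to the adventitial cluster. The reverse was seen for Mfap4, at 996 against 3280 CPM, with the alveolar cluster 3.29-fold higher (3.16–3.43) in 4 of 4 libraries. Eln also favored the alveolar cluster, at 3620 against 1666 CPM, by 2.17-fold (2.10–2.24) in 4 of 4 libraries. By library (1, 2, 3 and 7) the alveolar cluster held 4978, 4082, 1174 and 7610 CPM of Eln. The adventitial cluster held 4178, 2205, 863 and 2620 CPM. For Mfap4 the values were 3398, 3902, 1437 and 2735 against 1781, 1412, 497 and 1253 CPM. Library 3, lowest for both genes in both clusters, gave 98 of the 220 adventitial and 347 of the 1504 alveolar cells. Library make-up thus also entered both pooled ratios. Emilin1 was 264 against 135 CPM and Lox 244 against 166 CPM, both higher in the alveolar cluster. Efemp2 did not differ beyond its interval, with a ratio of 1.03 (0.90–1.18). The third cluster, of 169 cells, was the one with endothelial markers, and each of the 10 genes was lower in it than in the alveolar cluster, with Eln at 1075 CPM.

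Clustering of the mesenchymal-like cells alone separated further patterns, and 5 of its 16 subclusters were led by genes of other cell types. A subcluster of 129 adventitial fibroblast-like cells led by Cilp, Lum and Serpinf1 held 1896 CPM of Fbln1 (1820–1975) and 2477 CPM of Eln (2390–2567). A subcluster of 58 cells with the adventitial marker Pi16, in which B cell genes were also among the leading genes, held 2620 CPM of Mfap5 (2510–2734) and 1502 CPM of Fbn1 (1419–1589) but only 746 CPM of Eln (688–808). In the sum over these cells Fbn1 and Mfap5 were high while Eln was low. By library (1, 2, 3 and 7) their Eln was 725, 1164, 293 and 2648 CPM, from 1, 24, 32 and 1 cells. Library 3, which was lowest for Eln in fibroblast-like cells, thus also entered the pooled Eln value. Most of the smooth muscle cell-like cluster fell into 3 subclusters. A subcluster of 79 cells with the contractile genes Myh11, Cnn1 and Acta2 held 2809 CPM of Eln (2698–2924). A subcluster of 78 cells led by Col8a1 and Notch3 held 4695 CPM of Eln (4512–4883) with 16.9 CPM of Fbln1 (7.74–32.1). A subcluster of 42 cells led by Hhip, Fgf18, Aspn, Cdh4 and Lgr6, markers of peribronchial or alveolar myofibroblasts, held 4810 CPM of Eln (4560–5069). The pooled Eln levels of these subclusters came from library 2. By library (1, 2, 3 and 7) the contractile subcluster held 2499, 3421, 1171 and 1591 CPM and the Notch3 subcluster 1750, 5394, 2351 and 2224 CPM. The Hhip subcluster held 2583, 6299 and 533 CPM in libraries 1, 2 and 3. The Hhip subcluster also held 960 CPM of Mfap5 (850–1080), against 182 CPM (154–213) in the contractile subcluster, while Loxl1 was similar, at 360 CPM (294–437) and 391 CPM (350–435). Its 42 cells came to 27 from library 2, 12 from library 3, 3 from library 1 and none from library 7.

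**Figure D3:**
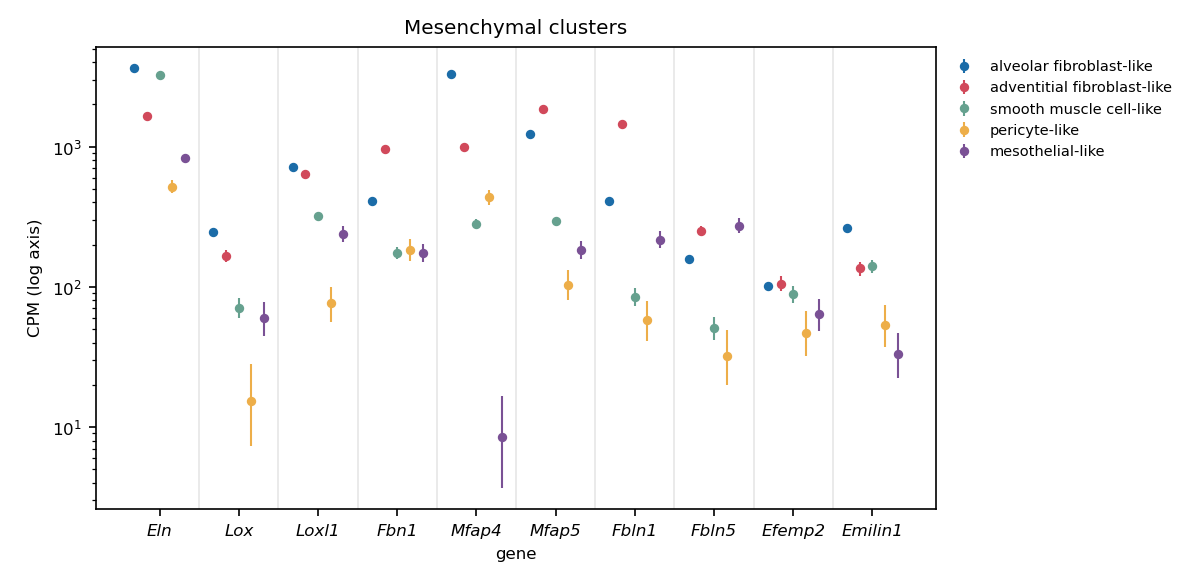
Level of each gene in 5 clusters of mesenchymal-like cells (the fibroblast-like cluster with endothelial markers is not drawn), in CPM on a log axis, with exact 95% Poisson intervals. Fbln1 and Fbn1 were highest in the adventitial fibroblast-like cluster (1441 and 966 CPM), and Mfap4 in the largest alveolar fibroblast-like cluster (3280 CPM).

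Within fibroblast-like cells, Eln varied most between libraries among the 10 genes. It was 4599 CPM in library 1 (4474–4726), 3733 CPM in library 2 (3701–3766), 957 CPM in library 3 (932–983) and 7078 CPM in library 7 (6884–7276). Library 3 was far below the rest and library 7 above them, with a ratio of highest to lowest of 7.39 (7.12–7.68). Mfap4 was 3291, 3566, 1187 and 2502 CPM in libraries 1, 2, 3 and 7, again lowest in library 3, with a ratio of 3.0 (2.93–3.08). Lox was 364, 222, 154 and 541 CPM, lowest in library 3 and highest in library 7, with a ratio of 3.51 (3.11–3.96). The 3 genes passed a 2-fold limit between the highest and the lowest library, which 26.2% of the 10811 genes compared passed, and which 13.3% of the 3479 genes with at least 1000 UMIs passed. Each of the 10 genes had at least 1000 UMIs in these cells. The other 7 genes varied by 1.52-fold to 1.78-fold. The median ratio was 1.73 for the 10 genes, 1.59 for all genes compared and 1.42 for those with at least 1000 UMIs. Fbn1 was 640, 412, 485 and 503 CPM in libraries 1, 2, 3 and 7. Fbln1 was 526, 470, 562 and 327 CPM. Library 3 was therefore not lowest for the fibrillin gene or for Fbln1, and the latter was highest there. In the largest fibroblast-like cluster alone, Fbn1 was 392 CPM (372–412) in library 3 and 387 CPM (376–399) in library 2, the lowest. Fbln1 in that cluster was 491 CPM (469–514) in library 3 and 471 CPM (428–517) in library 1. Both pairs of intervals overlapped. Loxl1 was 692, 719, 509 and 803 CPM, and Mfap5 was 1046, 1371, 864 and 1139 CPM. Fbln5 was 191, 164, 145 and 125 CPM, and the level of Efemp2 was 149, 96.6, 86.2 and 122 CPM. Emilin1 was 343, 235, 203 and 362 CPM. For Loxl1, Mfap5, Efemp2 and Emilin1 library 3 was again lowest, but by a smaller factor than for Eln. In the largest fibroblast-like cluster alone this held for Loxl1 and Mfap5. There Efemp2 was 96.1 CPM (86.4–107) in library 3 and 98.9 CPM (93.2–105) in library 2. Emilin1 was 253 CPM (237–269) and 254 CPM (245–264), so libraries 2 and 3 did not differ beyond their intervals for these 2 genes.

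**Figure D4:**
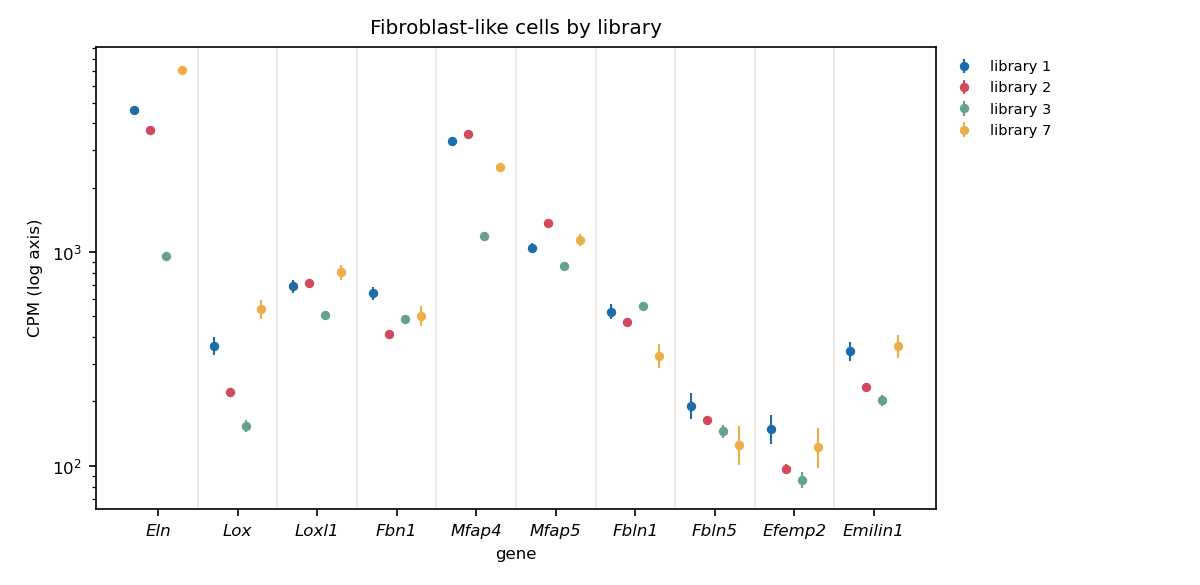
Level of each gene in fibroblast-like cells of libraries 1, 2, 3 and 7, in CPM on a log axis, with exact 95% Poisson intervals. Eln in library 3 (957 CPM) stands below the other 3 libraries (3733 to 7078 CPM), while Fbn1 spans only 412 to 640 CPM.

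The low Eln level of library 3 was found throughout its fibroblast-like cells. The median cell held 2484, 2666, 415 and 5678 CPM of Eln in libraries 1, 2, 3 and 7, and the upper quartile of library 3, 1239 CPM, lay below the median of each other library. At 2000 UMIs per cell, an Eln UMI was seen in 56.9% (52.3–61.5) of the cells of library 3 and in 87.1%, 91.5% and 88.5% of those of libraries 1, 2 and 7. The low values were not limited to a few cells. In the largest fibroblast-like cluster alone, Eln was 4978, 4082, 1174 and 7610 CPM, a ratio of 6.48 (6.22–6.75). In a subcluster led by Timp1, Gdf10 and Mmp3 it was 5217, 5038, 1337 and 8795 CPM. In one led by Il6, Cxcl1 and Ptgs2 it was 6757, 4728, 1423 and 12332 CPM. Library 3 was lowest in both subclusters. Outside the fibroblasts, Eln was 1573, 3930, 1440 and 1499 CPM in smooth muscle cell-like cells, where library 3 was lowest but close to libraries 1 and 7. In mesothelial-like cells it was 558, 492, 803 and 1331 CPM, so that library 3, with 28 of the 58 cells, lay above libraries 1 and 2. In endothelial-like cells it was 138, 212, 121 and 540 CPM, lowest in library 3 and highest in library 7, with a ratio of 4.45 (4.01–4.95). The endothelial list summed to 434, 500, 1053 and 275 CPM in fibroblast-like cells of libraries 1, 2, 3 and 7, and to 10.8, 66.6, 52.1 and 6.26 CPM in their largest cluster. Library 7 contributed 56 and library 1 contributed 98 fibroblast-like cells, against 1221 in library 2 and 518 in library 3. Which lung each library came from is not known here, so differences between mice, treatments and library preparations cannot be told apart.

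Endothelial-like cells expressed a part of the gene set, and they did so by vessel type. In a cluster of 404 cells with venous markers, Fbln5 stood at 472 CPM (449–496), against 8.92 CPM (7.47–10.6) in general capillary-like cells and 6.09 CPM (3.9–9.06) in aerocyte capillary-like cells, the thin capillary cells of gas exchange. The venous-like values by library (1, 2, 3 and 7) were 355, 504, 395 and 723 CPM, and the general capillary-like values 6.17, 9.60, 6.09 and 19.8 CPM, so that the ranges were far apart. The ratio was 52.9 (44.4–63.6). Fbln5 in venous-like cells also exceeded that of fibroblast-like cells, by 2.98-fold (2.80–3.16) in 4 of 4 libraries. Eln in venous-like cells was 466, 732, 449 and 1917 CPM by library and 719 CPM in sum, against 134 CPM in general capillary-like cells, a ratio of 5.36 (5.05–5.69). Lox, at 23.1 against 0.666 CPM, and Fbn1, at 41.2 against 8.39 CPM, were also higher in venous-like cells in 4 of 4 libraries. The venous-like cluster included a group of 21 cells, led by Gkn3 and Sfrp1, in which Lox stood at 237 CPM. It also included 35 cells that joined a subcluster with the arterial gene Gja5, so its sums were not of venous-like cells alone. The cells that kept the venous markers on renewed clustering held 9.73 CPM of Lox (6.23–14.5) and 31.6 CPM of Fbn1. Their Eln was 691 CPM (658–724) and their Fbln5 488 CPM (461–517). Between the venous-like cluster and general capillary-like cells Efemp2 did not differ, with a ratio of 0.968 (0.740–1.25). Loxl1, at 3.26 against 2.0 CPM, was low in both and did not differ beyond its interval. Venous-like cells thus carried elastin, fibulin-5 and fibrillin-1 transcripts with little Loxl1, which was 203-fold (114–407) higher in fibroblast-like cells. Lymphatic endothelial-like cells, of which there were 153, combined Fbln5 at 361 CPM (333–391) with the highest endothelial level of Emilin1, 179 CPM (160–201), and with 121 CPM of Fbn1 (105–138).

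Clustering of the endothelial-like cells alone gave 18 subclusters, and this step was added after the data had been seen. A subcluster of 77 cells with the arterial gene Gja5, 35 of them from the venous-like cluster, held 363 CPM of Eln (312–420). It held 387 CPM of Fbln5 and 140 CPM of Fbn1 (109–176). A subcluster of only 21 cells, led by genes such as Gkn3, Mgp, Hey2 and Sfrp1 and lying wholly inside the venous-like cluster, held 1889 CPM of Eln (1645–2159), 553 CPM of Fbln5 (425–708) and 237 CPM of Lox (156–345). This was the highest Eln among the endothelial subclusters, yet Loxl1 had 0 UMIs in these cells, which allows up to 26.4 CPM. Of these 21 cells 2 came from library 1, 7 from library 2, 12 from library 3 and none from library 7. Capillary subclusters were low in Fbln5, with 9.03 CPM in the largest one and 5.58 CPM in the aerocyte one. This did not hold for Emilin1, at 71.4 CPM (61.4–82.6) and 64.7 CPM (56.3–74.1) there against 64.4 CPM (54.8–75.3) in the venous-like subcluster. Efemp2 was 31.8 CPM (25.3–39.5) in the largest capillary subcluster and 21.5 CPM (16.1–28.1) in the venous-like one. A total of 6 of the 18 subclusters were led by genes of other cell types.

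**Figure D5:**
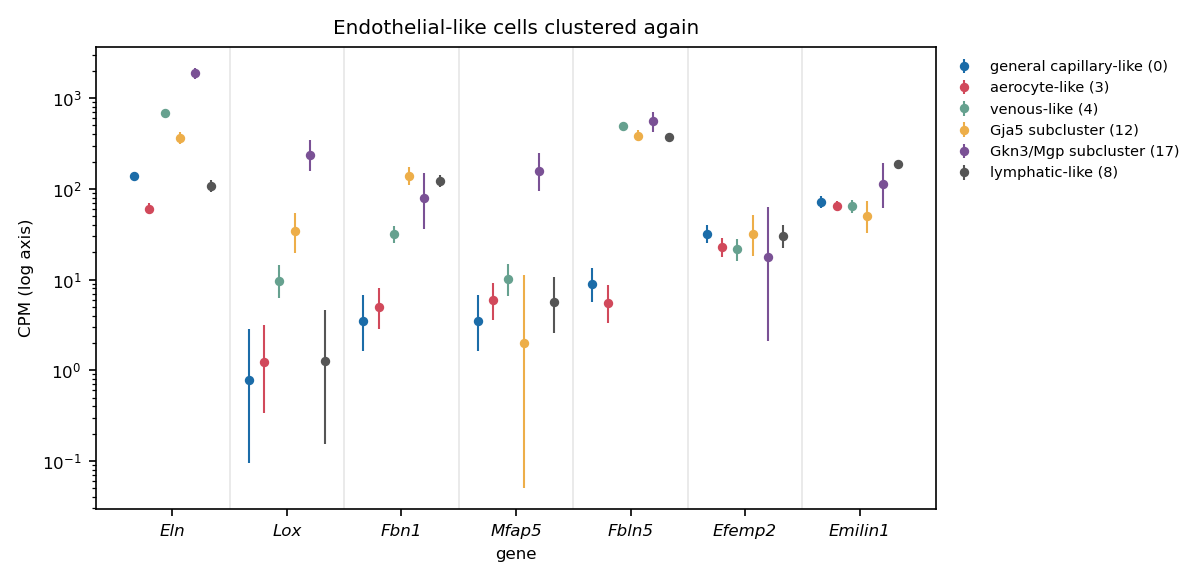
Level of 7 of the genes in 6 subclusters of endothelial-like cells, in CPM on a log axis, with exact 95% Poisson intervals. Fbln5 stands at 375 to 553 CPM in the venous-like, Gja5, Gkn3 and lymphatic-like subclusters and at 5.58 to 9.03 CPM in the general capillary-like and aerocyte-like ones.

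Across the 43 clusters, the genes whose levels followed each member most closely were collected with the Pearson correlation of log2(CPM + 10) over 13817 genes, as a description. For Loxl1 they were Col6a3, Col1a1 and Vgll3 (r = 0.99), and for Mfap5 the collagen genes Col1a1, Col1a2 and Col3a1 (r = 0.98). Eln was closest to the proteoglycan gene Bgn (r = 0.98), followed by Cyr61 and Mxra8. Mfap4 was closest to Inmt (r = 0.98), Dpep1 and Tcf21, and Fbln1 to Gli1 (r = 0.98), a transcription factor of hedgehog signaling, and then to Col1a1 and Col1a2. Lox was closest to Fgf2, Col6a3 and Mmp2 (r = 0.97) and Fbn1 to P3h3, Col5a2 and Serping1 (r = 0.96). The genes with a wider distribution had looser neighbors. These were Zfp423 (r = 0.95), Ltbp4 and Tshz2 for Fbln5, Nicn1 (r = 0.94), Sgce and Fkbp9 for Efemp2, and Pros1 (r = 0.89), Calu and Tns1 for Emilin1. Among the 10 genes themselves, Loxl1 and Mfap5 were most alike (r = 0.99) and Fbln1 and Emilin1 least (r = 0.56). The clusters share libraries and differ in depth, and several hold the same cell type, so these values are not independent.

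The other genes of the elastic fiber system were read from a list of 32, of which 31 had enough counts. A total of 22 were at least 4-fold higher in mesenchymal-like cells and 2 at least 4-fold lower, with a median ratio of 8.65. Of all genes compared, 11.7% were at least 4-fold higher and 14.5% at least 4-fold lower, with a median of 0.968. All 6 further microfibril and latent TGF-beta binding genes were higher, among them Ltbp4, which binds fibulin-5 and tethers TGF-beta, at 792 against 34.9 CPM (ratio 22.7). Ltbp2 had a ratio of 138 and was highest in pericyte-like cells, at 806 CPM, with 528 CPM in smooth muscle cell-like cells. Ltbp1 at 16.0, Fbn2 at 14.3, Ltbp3 at 11.6 and Mfap2 at 5.96 had smaller ratios. The 4 other fibulins also passed, with Fbln7 at 79.8, Efemp1 at 68.5, Fbln2 at 12.6 and Hmcn1 at 4.55. Efemp1, the gene for fibulin-3, was highest in mesothelial-like cells, at 1065 CPM, and Hmcn1 in endothelial-like cells, at 231 CPM. Of the 7 fibrillin-binding ADAMTS genes 6 passed, namely Adamts17 at 170, Adamtsl2 at 98.6, Adamts10 at 8.65, Thsd4 at 6.27, Adamtsl5 at 5.92 and Adamtsl4 at 5.44. The exception was Adamts6, with 11.3 CPM (6.68–17.8) in NK cell-like cells and nearly the same, 11.2 CPM, in B cell-like cells.

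Of the 5 genes of cross-linking and its activation 4 passed, namely Loxl2 at 19.3, Loxl3 at 12.9, Loxl4 at 9.26 and the procollagen protease gene Bmp1 at 5.40, which was highest in alveolar type 2 epithelial-like cells at 148 CPM. The fifth, the copper transporter gene Atp7a, had a ratio of 0.710, although its highest class was pericyte-like cells, at 140 CPM (113–172), followed by monocyte-like cells at 54.4 CPM. The 3 relatives of Emilin1 with enough counts did not reach the limit. Mmrn1 and Mmrn2 were highest in endothelial-like cells, at 243 and 202 CPM, and Emilin2 in basophil or mast cell-like cells, at 861 CPM. None of the 3 genes of the elastin receptor complex was 4-fold different, and their median ratio was 0.366. Ctsa was highest in macrophage-like cells at 459 CPM and Neu1 in eosinophil-like cells at 412 CPM (326–514). Library 7 gave 215 of the 258 eosinophil-like cells, whose median depth was only 564.5 UMIs. Glb1 was highest in basophil or mast cell-like cells, at 56.9 CPM (35.6–86.1). That interval included the 48.9 CPM of mesothelial-like and the 36.8 CPM of macrophage-like cells, so its leading class was not clear. Tgfb1, a growth factor gene known to induce matrix genes, was highest in monocyte-like cells, at 516 CPM. It was, with Mmrn1, 1 of the 2 genes at least 4-fold lower in mesenchymal-like cells, whereas Tgfb3 had a ratio of 46.6 and Tgfb2 of 13.4.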

How the data were processed

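The deposited matrix held UMI counts per gene and cell barcode of 7 numbered libraries. Per the file headers, the labels and the study's methods, the authors made it with Cell Ranger 3.1.0 and STAR on mm10, down-sampling reads when libraries were joined. The labels name a version 3 kit and the methods version 2, and the annotation was not given in the sources used here. Libraries 4, 5 and 6 were left out of the comparisons. The members, lists and limits were chosen with earlier results of these data known.

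Cells of libraries 1, 2, 3 and 7 with mitochondrial genes at most 10% of UMIs were kept, with no removal of doublets in the main setting (Scrublet in scanpy 1.11.5 was an alternative). Counts were scaled to 10000 per cell and logged. A total of 2000 variable genes, 30 principal components, an alignment of libraries by mutual nearest neighbors, 20 neighbors and Leiden clustering (leidenalg 0.10.2, resolution 0.8) gave the clusters. A cluster was named by its best-scoring list of 32 marker lists when at least 3 markers were found in 10% of its cells and no other class had more markers among its 10 leading genes (this rule was written once the clusters had been inspected). The cluster that stayed unnamed entered the ratios with all other cells. Ratios between classes or libraries were compared for genes with at least 50 UMIs (100 in fibroblast-like cells). The genes named in the text were the 10 members, the 3 genes most like each, and genes of a list of 32. Other genes name a cluster or subcluster by its markers or leading genes and were chosen after their values were seen. Scripts were tested on simulated counts.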

Additional observations from a re-analysis of the deposited data

Results flagged for a closer look

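In libraries 4, 5 and 6, which entered no comparison, 12762 cells held 91797968 UMIs. Emilin1 gave 570 UMIs there, or 6.21 CPM (5.71–6.74), which was above the limit that a count of 0 allows. By library it stood at 13.5, 3.05 and 2.41 CPM. Efemp2 gave 27 UMIs (0.294 CPM, 0.194–0.428), Loxl1 gave 4 UMIs and Fbln1 gave 4 UMIs. The remaining 6 genes gave between 0 and 3 UMIs. Emilin1 and Efemp2, which had the most counts here, were among the genes with lower mesenchymal-like ratios in the compared libraries. Fbln5 had a lower ratio than Efemp2 there, 9.76 against 11.4, but gave 0 UMIs in libraries 4, 5 and 6. Efemp2 gave 3 UMIs in library 6, which was not above the limit that a count of 0 allows.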

How the results depend on the processing

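The count of 10 genes at least 4-fold higher in mesenchymal-like cells was the same under each alternative run, and no ratio changed direction. The number of genes at least 2-fold higher in fibroblast-like than in smooth muscle cell-like and pericyte-like cells was 7 to 8, and the number of genes at least 2-fold lower was always 0. Emilin1 was the added gene with a mitochondrial limit of 5%, with a clustering resolution of 1.5, without library 7, or with the fibroblast-like cells restricted, and Eln was the added gene when libraries were weighted equally. The cells compared were not the same in each run. At the limit of 5%, 0 cells were named smooth muscle cell-like and 144 pericyte-like. With 15 principal components, 329 were named smooth muscle cell-like and 0 pericyte-like. The number of genes that varied at least 2-fold between libraries was 1 to 3 when libraries were left out in turn. It fell to 1, Lox, without library 3, where the Eln ratio became 1.90 and that of Mfap4 1.43, and reached 4, with Fbln1, under a mitochondrial limit of 5% or in the largest fibroblast-like cluster alone. Without library 2, the mesenchymal-like ratio of Loxl1 became 752 and that of Fbln5 17.4, and 7 of the 10 genes moved by more than 1.5 times. The alternatives that restricted fibroblast-like cells, raised the count minimum or left library 2 out of the class levels of Eln and Mfap4 were chosen after seeing the data. No paired analysis was possible because the library numbers carry no group and no test was made. The small number of cells limits the pericyte-like (79 cells) and mesothelial-like (58 cells) values, and depth also limits the pericyte-like ones. Library 7 held 76 mesenchymal-like cells in all.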
